A study of Mus musculus with 42 samples.

Results

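The genes described here encode the sarcomere, the contractile unit of striated muscle, and a few proteins that build or anchor it. They are a list of 38 cardiac sarcomere and myofibril genes, found by symbol among the 56953 genes of the count table. Myosin motors and their light chains form the thick filament, and actin with troponins and tropomyosin forms the thin filament. The thin filaments are anchored at the Z-disc, titin spans from the Z-disc to the M-band, and the methyltransferase *Smyd1* and the chaperone *Unc45b* are needed for the assembly of myosin into filaments. In the early embryo these genes are switched on as mesoderm of the heart field differentiates into cardiomyocytes and joins the heart tube.

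RNA was sequenced from the left and the right side of the microdissected heart field of 21 mouse embryos, which makes 42 libraries, at the stage the labels call E8.5i. Wild-type embryos (Ccdc40+/+, 5 embryos, 4 males and 1 female) had rightward heart looping. Embryos homozygous for the lnks allele (Ccdc40lnks/lnks), which disrupts a gene needed for motile cilia, had either rightward looping (11 embryos, 6 males and 5 females, here the rightward mutants) or inverted looping (5 embryos, 3 males and 2 females, here the inverted mutants). The study also sorts its embryos into laterality classes, and the rightward mutants here pool more than one of them, which no label tells apart. The heart tube itself was cut away together with head, back and trunk, so that the tissue is mainly the dorsal pericardial wall. The question each comparison addresses is whether the right and left sides differed, and whether that difference depended on genotype and on the direction of looping.

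Libraries held 36073684 to 62970327 counts. CPM here is counts divided by the effective library size, except for *Ccdc40*, whose counts were divided by the total counts of the library. On that scale *Ccdc40* was detected at 14.9 to 25.4 CPM in wild-type libraries. It was at 8.95 to 14.6 in rightward mutants and at 9.87 to 14.8 in inverted mutants. The lowest wild-type library (14.86) lay just above the highest mutant library (14.77). Whether these libraries stay apart by effective library size was not tested. The 38 genes together took 0.114% to 0.953% of the counts of a library. The right libraries of the wild-type embryo 10_1 and of the rightward mutant 2_2 stood apart, with summed levels of 1880 and 1107 CPM against at least 2536 CPM in every other library. Since these are bulk samples, fewer cardiomyocytes and less sarcomere RNA per cardiomyocyte cannot be told apart.

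Per length, the atrial regulatory light chain *Myl7* was the most abundant of the 38, at a mean of 202 ± 76.4 CPM per kilobase of exon (SD, n = 42 libraries). Cardiac actin *Actc1* followed with 114 ± 49.7, then tropomyosin *Tpm1* with 110 ± 25.7 and cardiac troponin C *Tnnc1* with 98.4 ± 45.2. Next came the α-cardiac myosin heavy chain *Myh6* with 73.6 ± 34.1 and the slow skeletal troponin I *Tnni1*, the embryonic cardiac form, with 67.7 ± 25.2. Among these 6 genes, neighbours in this order differed by less than their SD over libraries, except *Myl7* and *Actc1*. At the other end were the ventricular light chain *Myl2* at 0.450, *Cmya5* at 0.0531, *Myom2* at 0.0129, *Myoz2* at 0.00865 and *Xirp2* at 0.000872 CPM per kilobase. *Xirp2* had no count in 33 libraries and *Myoz2* none in 10, and neither passed the filter on low counts in the fits of right over left, which left 36 of the 38 genes to test.

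**Figure D1:**
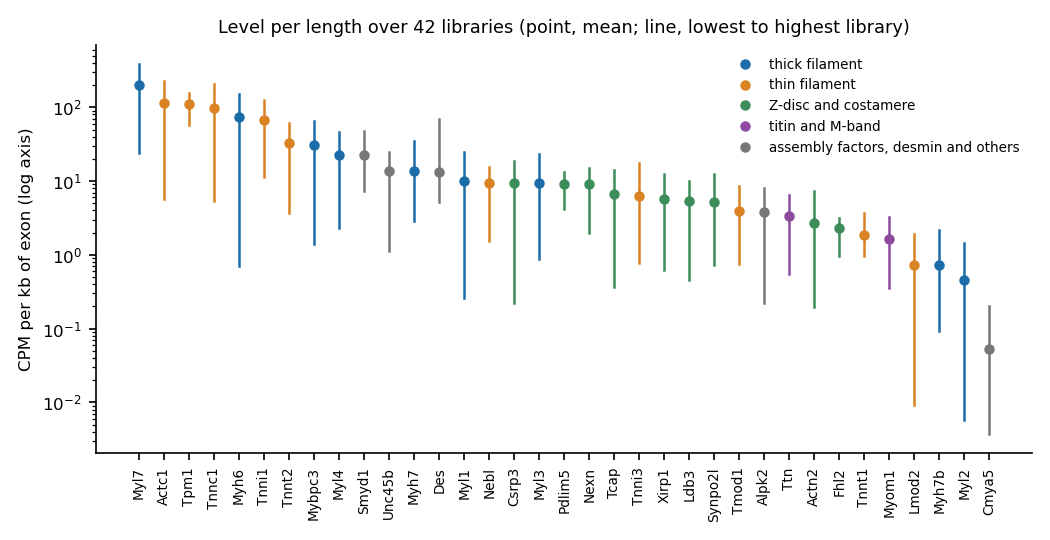
Mean level per length over the 42 libraries of the listed genes with a count in every library, in CPM per kilobase of exon. The axis is a log axis, bars run from the lowest to the highest library and colours give the role of each protein. *Myl7*, at 202, is the highest drawn and *Cmya5*, at 0.0531, the lowest. *Myom2*, *Myoz2* and *Xirp2*, with no count in at least 1 library, are not drawn.

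The sequences upstream of 4 genes are printed to show the regions in front of genes described at length: *Myl7* for its level, *Actc1* and *Mybpc3* for the small adjusted p-values of their asymmetry in inverted mutants, and *Lmod2* for the difference between groups described further on. Each run is the 250 bases just before the canonical transcription start (GRCm39, GENCODE), 5′ to 3′ on the strand of the gene. Capitals mark matches on either strand to the CArG box (the site of serum response factor), the MEF2 site, TATAAA, the GATA-type letters AGATAA and TGATAA, and the TEAD-type letters CATTCC. A MEF2 match can share bases with a TATAAA match.
Myl7 (chr11:5848793-5849042, minus strand): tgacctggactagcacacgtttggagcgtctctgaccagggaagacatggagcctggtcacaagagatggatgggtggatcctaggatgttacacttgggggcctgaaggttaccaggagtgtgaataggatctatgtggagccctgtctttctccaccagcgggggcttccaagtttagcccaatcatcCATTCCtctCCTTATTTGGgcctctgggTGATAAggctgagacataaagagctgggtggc
Actc1 (chr2:113884044-113884293, minus strand): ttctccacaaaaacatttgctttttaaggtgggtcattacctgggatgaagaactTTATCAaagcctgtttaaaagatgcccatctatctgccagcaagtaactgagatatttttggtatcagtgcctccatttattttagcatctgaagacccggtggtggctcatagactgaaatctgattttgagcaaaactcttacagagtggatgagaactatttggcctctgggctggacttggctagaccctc
Mybpc3 (chr2:90948239-90948488, plus strand): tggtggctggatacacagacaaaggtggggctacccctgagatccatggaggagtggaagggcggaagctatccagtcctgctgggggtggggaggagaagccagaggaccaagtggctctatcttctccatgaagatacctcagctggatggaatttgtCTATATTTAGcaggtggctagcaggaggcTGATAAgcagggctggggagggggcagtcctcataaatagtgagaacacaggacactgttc
Lmod2 (chr6:24597435-24597684, plus strand): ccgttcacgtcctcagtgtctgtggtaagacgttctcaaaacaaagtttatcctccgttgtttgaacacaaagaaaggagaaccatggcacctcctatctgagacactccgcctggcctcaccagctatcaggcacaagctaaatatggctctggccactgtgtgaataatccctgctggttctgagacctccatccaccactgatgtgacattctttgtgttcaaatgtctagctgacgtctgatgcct
The window of *Myl7* holds CATTCC, a CArG box and TGATAA, which begin 60, 51 and 32 bases before the start, that of *Mybpc3* holds a MEF2 site and TGATAA at 90 and 61 bases, and that of *Actc1* holds TGATAA on the other strand at 195 bases. The window of *Lmod2* holds none of these letters. Among the 38 genes, the CArG box was found in 3 windows (7.89%, against 1.4% of all 21757 promoters of the same length), the MEF2 site in 6 (15.8% against 2.79%), TATAAA in 3 (7.89% against 11.9%), AGATAA in 4 (10.5% against 9.61%), TGATAA in 5 (13.2% against 7.63%) and CATTCC in 9 (23.7% against 12.1%). No match was found in 17 windows (44.7% against 64.4%). These are matches of letters, not measured binding.

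In inverted mutants the sarcomere genes were higher in the right side. Their summed level was 4645, 4574, 2536, 3606 and 3225 CPM on the left of the embryos 2_7, 4_6, 10_3, 18_2 and 32_2, and 7206, 9156, 4520, 8150 and 8081 CPM on their right. The right exceeded the left in 5 of 5 embryos, with a mean log2 ratio of right over left of 0.99 ± 0.27 (SD, n = 5), a fold of 1.99, and single embryos from 0.63 to 1.33. The levels themselves overlapped, since the lowest right side (10_3, 4520 CPM) lay below the highest left side (2_7, 4645 CPM). The sides were therefore compared within each embryo.

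Wild-type embryos and rightward mutants had no common direction. In wild type the summed level was 4304, 8396, 5310, 3571 and 3625 CPM on the left of the embryos 7_1, 8_1, 10_1, 17_7 and 22_4 and 5123, 5199, 1880, 5109 and 7001 CPM on the right, with a mean log2 ratio of -0.09 ± 0.99 (SD, n = 5) and the right higher in 3 of 5. Without 10_1 that mean was 0.26, without 8_1 it was 0.055 and without 22_4 it was -0.36. In rightward mutants the summed level ranged from 2621 to 8895 CPM on the left, with a median of 5171, and from 1107 to 9563 on the right, with a median of 6037. Their mean log2 ratio was 0.02 ± 0.62 (SD, n = 11), from -1.24 in 2_2 to 1.23 in 19_4, and the right was higher in 6 of 11. The rightward mutant 19_4 thus had a ratio within the range of inverted mutants, as did the wild-type embryo 22_4 at 0.95. No test was run on this sum, since the genes were chosen with earlier results known.

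**Figure D2:**
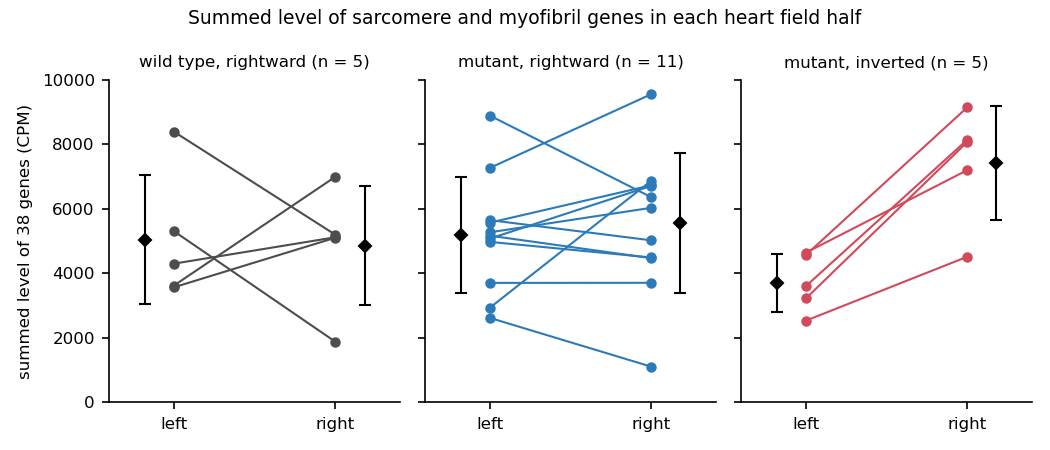
Summed level of the 38 genes in the left and right side of each embryo, in CPM, with a line joining the sides of one embryo, a panel for each group, and diamonds with bars for the mean and SD. The lines rise from left to right in 5 of 5 inverted mutants, in 6 of 11 rightward mutants and in 3 of 5 wild-type embryos.

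Gene by gene, 30 of the 36 genes tested passed in inverted mutants, each with the right side higher (edgeR quasi-likelihood test with embryo as block, Benjamini-Hochberg adjusted p under 0.05 over 22960 genes), against a background of 1.72% of all genes called right higher. The log2 fold change was above 0 for 36 of 36, against 48.8% of all genes, with a median of 1.14 against -0.005 over all genes, and it ranged from 0.12 for *Myh7b* to 2.88 for *Myl2*. DESeq2 called 34 of them right higher, against 5.02% of all genes. The right was higher in every inverted embryo for 35 of the 36 genes, against 7.35% of 26335 genes, the exception being *Myh7b* in 2_7. The count of calls depended on the fit, which called 22 without the embryo 32_2 and 32 without 10_3. A fit of all 42 libraries gave 4 (*Tnni3*, *Lmod2*, *Actn2* and *Smyd1*) with a median of 1.12. In that fit the 3 groups share an estimate of the spread that includes the variable rightward embryos. The share of all genes called is not given here for these other fits, so their counts have no background beside them.

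In thick filament genes, 7 of 9 passed in inverted mutants. The α-cardiac heavy chain *Myh6* (chr14:55179367-55205887, GRCm39, minus strand) stood at 654, 553, 333, 525 and 426 CPM on the left of the 5 embryos, in the order given above, and at 1027, 1044, 631, 991 and 1307 on the right. Left and right overlapped by a single embryo, as 654 in 2_7 exceeded 631 in 10_3, and the fold change was 1.01 ± 0.12 on the log2 scale (SE; adjusted p = 0.00753, edgeR quasi-likelihood test). Its neighbour *Myh7*, the slow or β-cardiac heavy chain, was at 113, 74.6, 62.4, 35.1 and 76.3 CPM on the left and 225, 216, 71.9, 315 and 206 on the right. Its ratios were all positive but uneven, 1.00, 1.53, 0.20, 3.17 and 1.43, and it did not pass (1.45 ± 0.35, adjusted p = 0.0859). The antisense transcript *Mhrt* overlaps both heavy chain genes on the opposite strand, and whether the counting used strand is not given in the sources used here.

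The light chains were right higher as well. *Myl7*, on chr11:5845449-5848792, was at 454, 496, 253, 389.9 and 307 CPM on the left of inverted mutants and 578, 967, 438, 720.2 and 782 on the right (0.88 ± 0.12, adjusted p = 0.0116). The embryonic and atrial essential light chain *Myl4* was at 136, 133, 62.9, 96.2 and 78.9 CPM on the left and 208, 295, 127, 228 and 199 on the right (1.08 ± 0.10, adjusted p = 0.00329). The right was higher in all 5 embryos for both, with ranges of left and right that overlapped. *Myl2*, which marks ventricular muscle, was near the limit of detection, with 1 to 251 counts per library. It stood at 1.41, 0.489, 0.244, 0.10 and 0.451 CPM on the left and 3.92, 4.47, 0.810, 3.86 and 5.41 on the right, the widest fold change of the 36 genes (2.88 ± 0.47, adjusted p = 0.0227), and leaving out single embryos moved its adjusted p between 0.0196 and 0.123. Cardiac myosin-binding protein C, *Mybpc3* (chr2:90948489-90966861, plus strand), was at 115, 106, 44.4, 65.5 and 71.2 CPM on the left and 215, 269, 105, 211 and 222 on the right (1.37 ± 0.11, adjusted p = 0.00262). Its sides overlapped only in that the left sides of 2_7 and 4_6 exceeded the right side of 10_3. The lowest of the group was *Myh7b* (0.12, adjusted p = 0.825).

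In thin filament genes, 9 of 10 passed. *Actc1* (chr2:113876266-113884043, minus strand) was at 578, 604, 259.7, 419 and 376 CPM on the left and 944, 1306, 576, 1012 and 945 on the right (1.12 ± 0.083, a fold of 2.18, adjusted p = 0.00257). Its levels overlapped between the sides, but its ratio was positive in all 5 embryos and ran from 0.71 in 2_7 to 1.33 in 32_2. Cardiac troponin T, *Tnnt2*, was at 267, 275, 135, 197 and 155 CPM on the left and 417, 545, 228, 456 and 394 on the right (1.00 ± 0.10, adjusted p = 0.00483). The embryonic troponin I *Tnni1* was at 216, 211, 122, 163 and 132 CPM on the left and 308, 452, 233, 383 and 357 on the right (1.05 ± 0.12, adjusted p = 0.00625). The adult cardiac form *Tnni3*, which overlaps *Dnaaf3* on the same strand, was at 13.9, 17.0, 2.55, 9.27 and 7.56 CPM on the left and 22.8, 44.3, 12.1, 22.1 and 37.2 on the right (1.56 ± 0.23, adjusted p = 0.0154). For *Tnni3* the left sides of 2_7 and 4_6 exceeded the lowest right side, that of 10_3. The smallest change of the group was that of *Tpm1* (0.64, adjusted p = 0.00644) and the largest that of *Lmod2* (1.93, adjusted p = 0.0178). *Tnnt1*, the slow skeletal troponin T, did not pass (0.85, adjusted p = 0.0671).

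In Z-disc and costamere genes, 8 of the 9 tested passed. The Z-disc crosslinker α-actinin 2, *Actn2* (chr13:12281303-12356693, minus strand), led with 24.0, 22.9, 5.53, 11.8 and 14.2 CPM on the left of inverted mutants and 48.6, 78.3, 20.4, 43.8 and 69.6 on the right (1.78 ± 0.16, a fold of 3.42, adjusted p = 0.0036). Its ratio ran from 1.02 in 2_7 to 2.29 in 32_2, while the levels of the sides overlapped. The lowest in the group was *Fhl2*, which did not pass (0.37, adjusted p = 0.0979), and the lowest that passed was *Pdlim5* (0.53, adjusted p = 0.0124).

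Of titin and the M-band proteins, 2 of 3 passed. Titin, *Ttn* (chr2:76534136-76812891, minus strand), the molecular spring of the sarcomere, had the smallest adjusted p of the 36 genes. It was at 272, 269, 170.5, 239 and 292 CPM on the left and 544, 771, 344, 659.8 and 718 on the right (1.27 ± 0.082, a fold of 2.41, adjusted p = 0.0025), and every right side lay above every left side. The M-band crosslinker *Myom1* was at 18.8, 20.2, 10.3, 15.8 and 13.9 CPM on the left and 39.4, 50.1, 21.2, 46.8 and 45.3 on the right (1.34 ± 0.11, adjusted p = 0.0027), again with no overlap between the sides. *Myom2*, with a median of 8.5 counts per library, did not pass (2.16, adjusted p = 0.0617).

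Of the assembly factors and the remaining genes, 4 of 5 passed. The myosin chaperone *Unc45b* was at 118, 131, 65.6, 92.5 and 73.6 CPM on the left and 199.6, 253, 137, 222 and 207 on the right (1.11 ± 0.10, adjusted p = 0.00329). The methyltransferase *Smyd1* (chr6:71190923-71299217, minus strand), needed for sarcomere assembly, was at 65.8, 74.8, 47.0, 53.0 and 56.4 CPM on the left and 150.2, 198, 94.6, 222 and 152 on the right (1.43 ± 0.13, a fold of 2.69, adjusted p = 0.00365). Both genes had every right side above every left side. *Cmya5* did not pass (0.68, adjusted p = 0.168). Desmin, *Des*, the intermediate filament that links myofibrils, passed (1.02, adjusted p = 0.0133), and in the rightward mutant 15_5 it stood at 294 CPM on the left and 361 on the right against at most 100.2 in every other library.

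**Figure D3:**
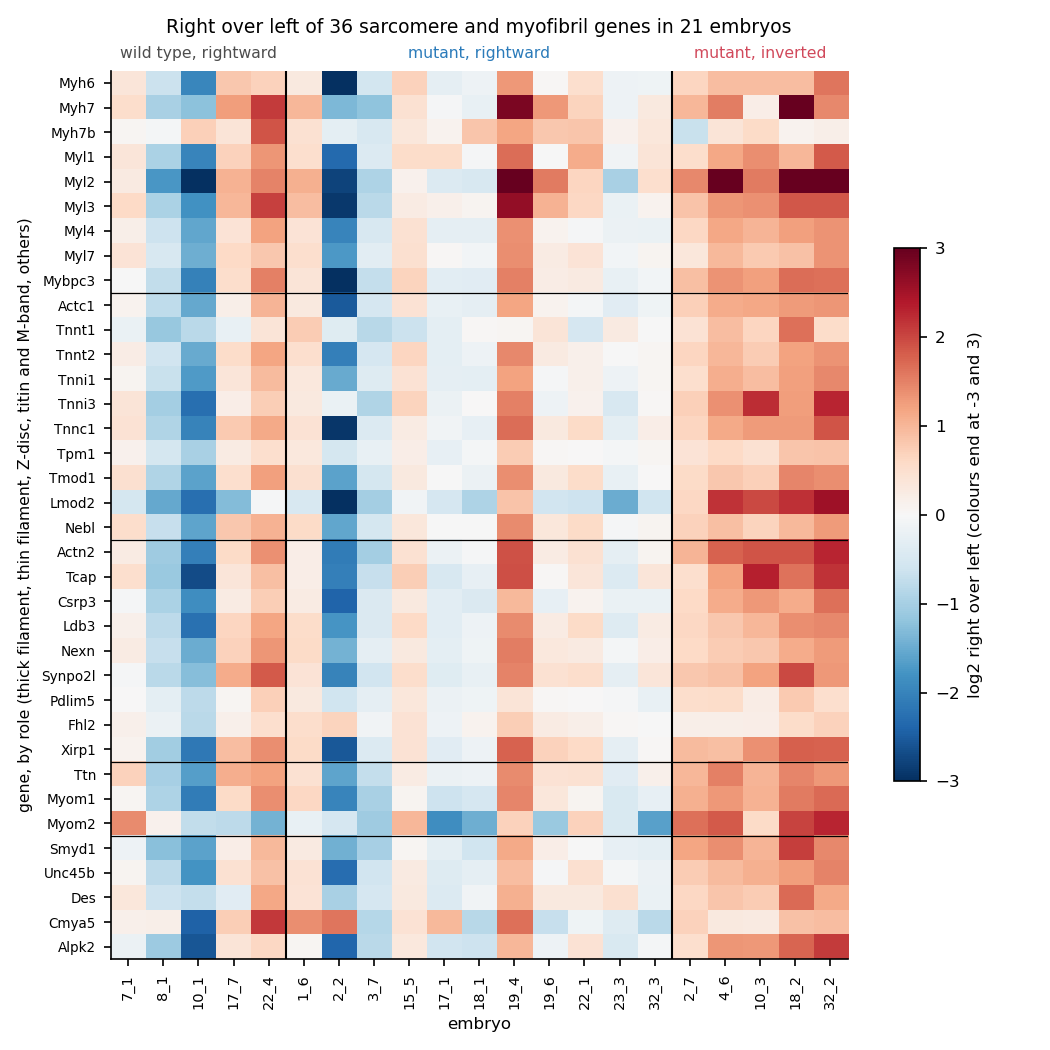
Log2 ratio of right over left for the 36 genes tested (rows, by role) in each of the 21 embryos (columns, by group), coloured from left higher to right higher. The 5 columns of inverted mutants show the right higher throughout except *Myh7b* in 2_7, while the columns of the other groups change colour from embryo to embryo.

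In wild-type embryos, 0 of 36 genes passed, against 0% of 23182 genes called in either direction, and 1 of 36 had an unadjusted p under 0.05, against 2.76% of all genes. The median log2 fold change was -0.12, with 8 genes above 0 and 28 below. In rightward mutants 0 of 36 passed, against 0.0263% of 22795 genes, and 3 had an unadjusted p under 0.05, against 3.59%. The median there was 0.02, with 22 genes above 0 and 14 below. DESeq2 called 0 of 36 in either group, against 0.082% of all genes in wild type and 0.136% in rightward mutants.

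The ratios of single genes went both ways in these groups. In wild type, *Actc1* was at 564, 1107, 591, 515 and 408 CPM on the left of 7_1, 8_1, 10_1, 17_7 and 22_4 and at 609, 653, 206, 584 and 826 on the right, with log2 ratios of 0.11, -0.76, -1.52, 0.18 and 1.02. *Myh6* was at 539, 1305, 885, 415 and 507 CPM on the left and 699, 834, 227, 722 and 818 on the right, and *Ttn* at 234, 715, 283, 246 and 247 on the left and 379.5, 356, 90.3, 526 and 569.9 on the right. For all 3 genes 8_1 and 10_1 were higher on the left and the other embryos higher on the right. In rightward mutants the ratio of *Actc1* ran from -2.51 to 1.19, with a median of -0.12, that of *Myh6* from -3.28 to 1.31, with a median of -0.14 and that of *Ttn* from -1.58 to 1.42, with a median of 0.15. The lowest was embryo 2_2 and the highest 19_4 for each of these.

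The embryos with the lowest and highest ratio were shared by further genes. The wild-type ratios were 0.42, -0.49, -1.46, 0.61 and 0.82 for *Myl7*, 0.21, -0.57, -1.52, 0.55 and 1.19 for *Tnnt2* and 0.075, -0.68, -1.69, 0.37 and 0.95 for *Tnni1*. They were 0.24, -1.07, -2.06, 0.57 and 1.38 for *Actn2*, -0.0034, -0.73, -2.03, 0.53 and 1.51 for *Mybpc3* and -0.16, -1.25, -1.61, 0.20 and 0.97 for *Smyd1*. In each list 10_1 was the lowest and 22_4 the highest. In rightward mutants the ratio ran from -1.72 to 1.39, with a median of 0.082 for *Myl7*, from -2.05 to 1.44, with a median of 0.069 for *Tnnt2*, from -2.10 to 1.91, with a median of 0.080 for *Actn2*, and from -1.43 to 1.15, with a median of -0.25 for *Smyd1*.

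The remaining exemplars were spread in the same way. In wild type the log2 ratios of *Myh7* were 0.52, -0.98, -1.22, 1.25 and 2.11 and those of *Myl2* were 0.26, -1.75, -3.89, 1.04 and 1.5, against 0.17, -0.62, -1.56, 0.42 and 1.21 for *Myl4*. They were 0.38, -1.01, -2.25, 0.19 and 0.73 for *Tnni3*, 0.051, -0.93, -2.10, 0.57 and 1.39 for *Myom1* and 0.093, -0.79, -1.80, 0.45 and 0.88 for *Unc45b*. Again 10_1 was lowest and 22_4 highest for each. In rightward mutants the ratio ran from -1.35 to 2.83, with a median of 0.29 for *Myh7*, from -2.77 to 5.74, with a median of 0.14 for *Myl2* and from -1.97 to 1.37, with a median of -0.17 for *Myl4*. It ran from -0.90 to 1.52, with a median of 0.021 for *Tnni3*, from -1.99 to 1.45, with a median of -0.24 for *Myom1* and from -2.28 to 0.92, with a median of -0.058 for *Unc45b*. The highest was 19_4 in all 6, and the lowest was 2_2 in all but *Tnni3*, where it was 3_7.

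These genes varied together over embryos. Each gene's log2 ratio was correlated with the mean ratio of the other listed genes whose median was at least 200 counts. This Pearson correlation had a median of 0.97 over the 21 embryos and was above 0.9 for 27 of 36 genes. The lowest were *Myh7b* with 0.32, *Cmya5* with 0.48, *Myom2* with 0.53 and *Fhl2* with 0.58. For the log2 level over the 42 libraries the median was 0.94 and 25 of 36 were above 0.9. The points share libraries and depth, and the sides of an embryo share that embryo. The genes outside the list whose ratio was most like the mean ratio of the 32 listed genes with at least 200 counts on average were *Asb2* with a Pearson r of 0.99 over 21 embryos, *Ankrd1*, *Sh3bgr*, *Rassf5*, *Cnn1*, *Casq1*, *Acta2*, *Actc1dt* (divergent to *Actc1*), *Hspb7* and *Popdc2*, down to 0.98, among 26298 genes compared.

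The difference in asymmetry between inverted and rightward mutants was tested as an interaction of side and group over all 42 libraries. The median difference of the log2 fold change was 1.15 over 37 genes, *Myoz2* included here, with 36 above 0 and *Myh7b* at -0.26, while the median over all genes was -0.014. With an unadjusted p under 0.05, 31 of 37 were more right in inverted mutants, against 6.68% of 26335 genes. A single gene, *Lmod2*, passed after adjustment, against 0.292% of all genes called in that direction. The count depended on the libraries in the fit. In fits added after the data were seen it was 7 with mutants alone, 8 without the embryos 10_1 and 2_2, and 6 against all 16 embryos with rightward looping, with *Lmod2* among the calls in each. Over all genes those fits called 242, 191 and 247 genes in either direction. DESeq2 called 7 (*Tnnt1*, *Tnni3*, *Lmod2*, *Actn2*, *Csrp3*, *Myom2* and *Smyd1*), against 1.33%. *Smyd1* came next in edgeR with a difference of 1.62 ± 0.36 (SE; adjusted p = 0.0517), then *Myom2* with 2.84 ± 0.67 (adjusted p = 0.0731). *Ttn*, which led within inverted mutants, had a difference of 1.23 ± 0.41 and *Actc1* of 1.27 ± 0.39, with adjusted p-values of 0.233 and 0.195.

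Per embryo, an exact two-sided permutation test of the ratios of 5 inverted against 11 rightward mutants gave an unadjusted p under 0.05 with the inverted mutants more right for 32 of 36 genes, against 7.36% of 26335 genes. For no gene did every inverted embryo lie above every rightward mutant (0 of 36, against 0.342% of all genes). Without the rightward mutant 19_4 the interaction called 5 genes, without the wild-type embryo 10_1 it called 4, without 8_1, 22_4 or 15_5 it called 2, and without the inverted embryo 18_2, 32_2 or 4_6 it called 0. *Lmod2* was among the calls in each case but the last 3. The counts over all genes in these fits are not given here, so whether the sarcomere genes or all genes moved cannot be read from them. Between rightward mutants and wild type, 0 of 37 genes passed in edgeR, against 0% of all genes, 0 had an unadjusted p under 0.05, against 3.04%, and DESeq2 called 0, against 0%. The median difference there was 0.10.

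**Figure D4:**
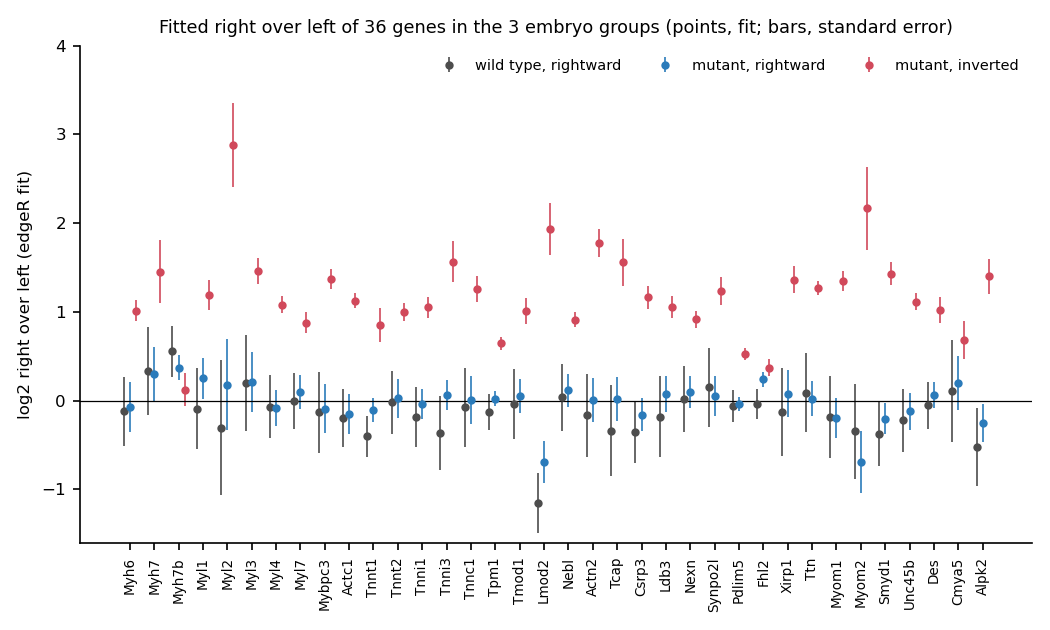
Fitted log2 fold change of right over left with its standard error for the 36 genes in each of the 3 groups, ordered by role. Points are fits and colours are groups. The medians of wild type, rightward and inverted mutants are -0.12, 0.02 and 1.14, and *Lmod2* goes from -1.16 and -0.69 in the first 2 groups to 1.93 in the last.

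*Lmod2*, leiomodin 2, which elongates thin filaments from their pointed ends, was the one gene that passed in the difference between groups. It lies on chr6:24597685-24605753 (GRCm39, plus strand) and had 1 to 189 counts per library, with a median of 65. In wild-type embryos it stood at 1.64, 3.46, 2.15, 1.85 and 1.44 CPM on the left and 1.13, 1.17, 0.410, 0.725 and 1.41 on the right. The left was higher in 5 of 5, with ratios of -0.52, -1.53, -2.27, -1.30 and -0.037, and it was the only one of the 36 genes with the same direction in every wild-type embryo (1 of 36, against 5.03% of 26335 genes). The fitted log2 fold change was -1.16 ± 0.34, with an adjusted p of 1.000 (edgeR quasi-likelihood test), and an exact sign-flip test over 5 embryos cannot go below 0.063.

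In rightward mutants *Lmod2* ranged from 0.510 to 4.11, with a median of 1.76 CPM on the left and from 0.0220 to 2.70, with a median of 1.31 on the right. Its ratio ran from -3.05 to 0.85, with a median of -0.59, and 19_4 was the one embryo of 11 with the right higher. The exact sign-flip test gave p = 0.0127 (unadjusted, two-sided). *Lmod2* was chosen for a difference that uses these same ratios, so this p is no independent support. The edgeR fit in this group, -0.69, did not pass. In inverted mutants it stood at 1.76, 1.00, 0.422, 0.626 and 0.53 CPM on the left and 2.73, 4.64, 1.79, 3.00 and 3.28 on the right, so that the right was higher in 5 of 5, with ratios of 0.62, 2.16, 1.98, 2.18 and 2.54. The fit in this group gave 1.93 ± 0.29 (adjusted p = 0.0178), and leaving out single embryos lost the call in 3 of 5 cases (adjusted p from 0.00514 to 0.0851).

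The difference of *Lmod2* between inverted and rightward mutants was 2.62 ± 0.44 (SE; adjusted p = 0.00966, edgeR quasi-likelihood test), and 2.67 as a difference of the mean per-embryo ratios. The groups still overlapped, with 0.62 in the inverted embryo 2_7 below 0.85 in 19_4. This call was lost without the embryo block (adjusted p = 0.176) and could not be made under a minimum of 10 counts in every library, since the right library of 2_2 held 1 count.

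The ratio of a gene minus the median ratio of the 36 genes in the same embryo describes asymmetry relative to the other genes, on a scale added after the data were seen. On this scale *Lmod2* was below the median gene in 16 of 16 embryos with rightward looping, wild type and mutant, with a mean of -0.83 ± 0.39 (SD, n = 16) and a range from -1.82 to -0.22. It was above the median gene in 4 of 5 inverted mutants, with a mean of 0.79 ± 0.47 (SD, n = 5), from -0.02 to 1.11. Against the 11 rightward mutants alone the difference was 1.55. *Lmod2* was chosen for its difference between these groups, so these values are a description with no test.

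On the same relative scale, 15 of 36 genes differed between inverted and rightward mutants at an unadjusted exact permutation p under 0.05, against 72.2% of 26335 genes in either direction, so nothing is read from that count. The scale is set by the sarcomere genes themselves. The genes are therefore given as a description. *Lmod2*, *Actn2*, *Alpk2*, *Smyd1*, *Mybpc3*, *Myom1*, *Csrp3* and *Myom2* had a larger ratio relative to the median gene in inverted than in rightward mutants. *Myh7b*, *Fhl2*, *Pdlim5*, *Tpm1*, *Myl7*, *Nebl* and *Nexn* had a smaller one. Within inverted mutants *Csrp3* lay above the median gene in 3 of 5 embryos and below it in 2, with a mean of 0.05. The relative difference was 0.67 for *Actn2*, 0.57 for *Alpk2* and 0.50 for *Smyd1*, and -0.34 for *Myl7*, -0.51 for *Tpm1* and -1.0 for *Fhl2*. *Tpm1*, *Pdlim5* and *Fhl2* are also made by cells other than cardiomyocytes, whose part in these values was not tested.

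**Figure D5:**
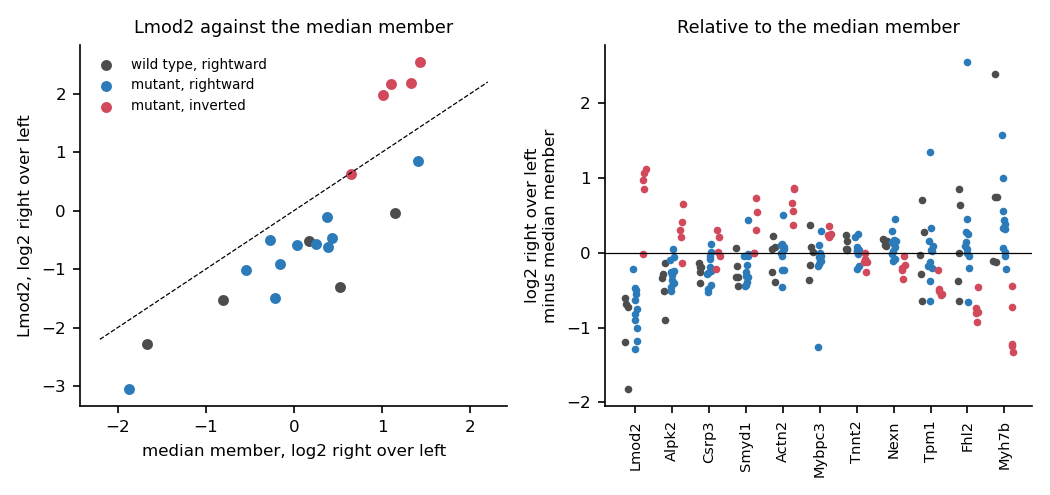
Left panel, log2 ratio of right over left of *Lmod2* against that of the median gene in each embryo, with a dashed line of equality. Right panel, the ratio minus that of the median gene for 11 genes chosen after their values were seen, with a point for each embryo and colours for the groups. Relative to the median gene, *Lmod2* lies below 0 in 16 of 16 embryos with rightward looping and above 0 in 4 of 5 inverted mutants.

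Within a side, levels were compared between groups. In the left side, 33 of 36 genes had a lower level in inverted than in rightward mutants, with a median log2 difference of -0.49 (sex in the model), and 3 were above 0 against 52.7% of all genes. There 0 of 36 passed against 0.0121% of 24838 genes, and 13 had an unadjusted p under 0.05 against 7.89%. *Smyd1* had the smallest adjusted p, at -0.85 ± 0.21 (SE; adjusted p = 0.394), and *Lmod2* was at -1.24 ± 0.37. In the right side, 35 of 36 had a higher level in inverted mutants, against 46.5% of all genes, with a median of 0.59. There 0 of 36 passed against 0.00805% of 24859 genes, and 6 had an unadjusted p under 0.05 against 4.26%. DESeq2 called 0 of 36 on either side, against 0.338% of all genes on the left and 0.0724% on the right. Between rightward mutants and wild type, edgeR called 0 of 36 on either side, against 0.0242% of all genes on the left and 0.0121% on the right, and DESeq2 called 0, against 0.0805% and 0.0241%. There 0 of 36 had an unadjusted p under 0.05 on either side, against 5.02% on the left and 3.28% on the right.

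Isoform pairs are read as the share of one partner in the CPM of both. *Myh7* made up 12.1% ± 2.67 (SD, n = 5) of *Myh6* and *Myh7* on the left of wild-type embryos and 16.9% ± 7.91 on the right, against 12.8% ± 3.93 and 16.6% ± 5.20 in inverted mutants. The rightward mutant 2_2 stood apart with 77.3% on the left and 92.9% on the right, with *Myh6* at 69.1 and 7.07 CPM. In inverted mutants the share of the ventricular form *Myl2* in *Myl2* and *Myl7* was higher on the right by 0.372 percentage points (0.136% left, 0.508% right), that of *Tnni3* in *Tnni3* and *Tnni1* by 1.86 points and that of *Myl3* in *Myl3* and *Myl4* by 3.47 points. Each of these 3 shares was higher on the right in 5 of 5 inverted mutants (exact sign-flip p = 0.063, unadjusted, the smallest possible with 5 embryos), while the same shares were higher on the right in 2, 1 and 3 of 5 wild-type embryos and in 5, 5 and 7 of 11 rightward mutants. The share of *Myh7* was higher on the right in 3 of 5 inverted mutants, 4 of 5 wild-type embryos and 8 of 11 rightward mutants. That of *Tnnt1* in *Tnnt1* and *Tnnt2* was higher on the right in 1 of 5, 1 of 5 and 6 of 11.

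Some other muscle genes also passed in inverted mutants, right higher. Over all genes, 1.72% were called right higher in this group. Of 33 further sarcomere genes tested, 17 passed, all right higher, among them *Trim55*, *Acta2*, *Casq1*, *Hspb7* and *Ankrd1*. That list had a median log2 fold change of 0.81, with 3 of 33 genes below 0. Of 18 genes of calcium handling and excitation 8 passed, led by *Cacna1d*, *Slc8a1*, *Ryr2*, *Hcn4* and *Trdn*, and of 16 cardiac regulators 6 passed (*Tbx5*, *Mef2c*, *Tbx20*, *Nkx2-5*, *Myocd* and *Gata5*), with medians of 0.31 and 0.59 and with 5 of the 18 and 0 of the 16 below 0. Of 10 atrial and venous pole genes 3 passed, right higher (*Tbx5*, *Osr1* and *Shox2*), of 10 ventricular chamber genes 1 (*Smpx*), and of 15 second heart field progenitor genes 2 (*Mef2c* and *Sfrp5*), the last list with a median of -0.23 and 9 of 15 genes below 0.

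Markers of other tissues moved with the sides in these embryos. Of 8 neural tube markers 4 passed in inverted mutants, left higher (*Pax6*, *Hes5*, *Olig2* and *Pou3f1*), against 0.318% of all genes called in that direction. The 8 markers had a median log2 fold change of -1.52. Their summed level was 95.7 to 156 CPM on the left and 44.8 to 114 on the right, and the median marker was left higher in 5 of 5 embryos. The median marker was also strongly left higher in the wild-type embryo 22_4 (-1.71) and the rightward mutants 19_4 (-2.03), 1_6 (-2.11) and 15_5 (-1.92), where the sarcomere genes were right higher, and right higher in 10_1 (2.47), where the sarcomere genes were left higher. The sign of the median neural marker was also opposite to that of the summed sarcomere level in 7_1 (-0.77), 8_1 (0.75), 18_1 (0.60), 17_7 (-0.47), 17_1 (0.30), 22_1 (-0.06) and 3_7 (0.06). In 19_6 the median neural marker was right higher by 2.43 while the summed sarcomere level was right higher by 0.19. In 32_3 both were right higher, at 0.05 and 0.001. In 2_2, where the summed sarcomere level had a log2 ratio of -1.24, the median neural marker was at -0.07, and in 23_3, where the sarcomere level was at -0.15, it was at -0.17.

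Of 11 skeletal muscle and somite markers tested, 1 passed in inverted mutants, left higher (*Myf5*), against 0.318% of all genes called in that direction. The list had a median log2 fold change of -1.0, a summed level of 120 to 202 CPM on the left and 74.6 to 134 on the right, and a median marker left higher in 5 of 5 embryos. Over the other embryos that median marker was right higher in 8_1 (1.96), 10_1 (1.41), 2_2 (1.17), 17_1 (1.27), 3_7 (0.68) and 18_1 (0.36), where the summed sarcomere level was left higher. It was left higher in 19_4 (-1.02), 15_5 (-0.89), 17_7 (-0.65), 32_3 (-0.27) and 1_6 (-0.06), where the sarcomere level was right higher, in 32_3 by only 0.001. The median somite marker and the sarcomere level were both right higher in 19_6 (0.87), 22_1 (0.55), 7_1 (0.29) and 22_4 (0.14), where the summed sarcomere level was at 0.19, 0.27, 0.25 and 0.95, and both were left higher in 23_3 (-0.10). Smooth muscle markers were right higher, 5 of 7 (*Cnn1*, *Acta2*, *Myl9*, *Des* and *Tagln*), at 305 to 563 CPM on the left and 575 to 1139 on the right. Of these, *Des* is one of the 38 genes and *Acta2* is also among the further sarcomere genes above. *Cnn1* and *Acta2* were also among the genes whose ratio was most like that of the sarcomere genes. Of the endothelial markers 1 of 10 passed (*Nfatc1*), right higher, and the median marker was right higher in 5 of 5 inverted mutants, by 0.10 to 0.22. Of the foregut endoderm markers 1 of 11 passed (*Hhex*), right higher, with 10 of 11 above 0. Of the 11, 5 were right higher with an unadjusted p under 0.05, against 9.29% of all genes. None of 9 blood, 8 yolk sac, 7 neural crest and 8 cycling cell markers passed (edgeR; median -0.04 for cycling cells). The median yolk sac marker varied widely over inverted mutants, at -0.85 in 2_7, -1.96 in 4_6, 5.53 in 10_3, 1.18 in 18_2 and 0.57 in 32_2. No marker of these lists was at 0 in all libraries of a group and side. The part of these tissues in the sarcomere values was not tested.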

How the data were processed

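Poly-A RNA of 42 heart field samples, left or right, was sequenced by the authors, who, per the labels and the study's methods, removed duplicate reads, aligned with STAR to GRCm39 with Ensembl genes and counted reads per gene with featureCounts (Subread 2.0.6). The deposited values are raw counts, not normalized, with replicates kept apart. Embryos are the replicates. The strand setting is not given in the sources used here.

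Groups came from the labels for genotype and looping direction. The study's laterality classes, which no label gives, were not used. Of 56953 gene identifiers, 56310 matched GENCODE names. Right was compared with left by the quasi-likelihood test of edgeR 4.0.16 in R 4.3.3 (TMM, filterByExpr with a minimum count of 5, a minimum total of 10, large.n of 50 and min.prop of 0.2, embryo as block), within each group or, for differences between groups, over all 42 libraries. Levels within a side were fitted with sex as covariate. P-values were adjusted over all genes tested (Benjamini-Hochberg, threshold 0.05). DESeq2 1.42.0 was an alternative. Ratios per embryo used log2 CPM with a prior count of 2, and single genes were tested with exact sign-flip and permutation tests (SciPy 1.17.1). Simulated data were used to test the fits of right over left in each group and of its difference between inverted and rightward mutants. The fit of the left-side level between those mutant groups was tested in the same way. The other fits were not tested on simulated data. The sides of an embryo are paired by the labels. Their deviations from the group means correlated with r from -0.06 to 0.61, with a median of 0.18, over 21 embryos, 17 of them above 0.1.

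The 38 genes, their roles, the other lists and the alternatives were chosen with earlier results of these data known. Values per embryo are given for 11 exemplars and for genes that passed, limited to the 8 with the smallest adjusted p where more passed, other members where they are the highest or lowest of their role, and up to 5 genes of other lists. Totals per library, 36073684 to 62970327 counts with a median of 43458644, leave a median of 0 counts per library for *Xirp2*, 2 for *Myoz2*, 8.5 for *Myom2* and 28.5 for *Cmya5*.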

Additional observations from a re-analysis of the deposited data

Results flagged for a closer look

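*Myh6* in the inverted mutant 32_2 had a log2 ratio of right over left of 1.62, against 0.65 to 0.92 in the other 4 inverted mutants, a gap of 0.719 of the range of the group, above the critical value of 0.71 for 5 samples. Such a gap was tested in 38 groups of values and found in this one, and chance gives it in about 1 of 20 groups.

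The asymmetry of *Lmod2* differed between inverted and rightward mutants by 2.62 on the log2 scale in the interaction test of edgeR (adjusted p = 0.00966). Its ratio was positive in 5 of 5 inverted mutants and in 1 of 11 rightward mutants.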

How the results depend on the processing

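In inverted mutants the count of genes right higher was 30 of 36. It was 4 in the fit of all 42 libraries, and 22 to 32 when single embryos were left out. Without the replicate block it was 21, and the other settings gave 29 to 34. The difference between inverted and rightward mutants, 1 gene, was 7 with DESeq2, 2 with median-of-ratios size factors, 3 without a filter on low counts, 0 with at least 10 counts in every library, 0 without the replicate block, and 0 to 5 when single embryos were left out. Alternatives added after seeing the data gave 7 with mutants alone, 8 without 10_1 and 2_2, 6 with all 16 rightward embryos as the reference and 1 with a robust prior. *Lmod2* was called in all of these except under 10 counts, where it was not tested, without the block, and without 18_2, 32_2 or 4_6. The cause was not tested. For most of these settings the count over all genes is not given here, so the values show only how the count of sarcomere genes moved. The count of single genes by exact permutation, 32, was 15 relative to the median gene, a scale on which 72.2% of all genes pass. Counts of 0 for wild type, for rightward mutants, for their difference and for levels within a side stayed at 0 in every setting run, males alone and no sex covariate included. For the 16 named genes, 650 of 701 values under alternatives kept their direction and side of the threshold, 26 lost the call, 25 gained it and none reversed. Depth limits few of the genes, but *Lmod2*, *Myl2*, *Myom2* and *Cmya5* rest on low counts.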

Other observations

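Several non-member genes of muscle tracked the sarcomere genes over the 21 embryos. *Asb2*, a subunit of a ubiquitin ligase of striated muscle, had a mean log2 ratio of right over left of -0.12 in wild type, 0.14 in rightward mutants and 1.32 in inverted mutants. *Ankrd1*, a titin-associated ankyrin repeat protein, had -0.36, -0.03 and 1.31, and the smooth muscle actin *Acta2*, which early cardiomyocytes also express, had -0.29, -0.08 and 1.33. The L-type calcium channel gene *Cacna1d* was at a mean of 10.9 CPM on the left and 24.6 on the right of inverted mutants, higher on the right in 5 of 5, and at 18.1 and 14.2 CPM in rightward mutants, higher on the right in 2 of 11.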
